A study of Mus musculus with 34 samples.

Results

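The 8 genes described here are the pair that encode histone H3.3, *H3f3a* and *H3f3b*, and 6 genes for the proteins that place H3.3 in chromatin, *Hira*, *Ubn1*, *Cabin1*, *Asf1a*, *Daxx*, and *Atrx*. They were chosen by name from 23109 genes, and each gene was read from its RefSeq transcript with the highest mean level over 14 RNA-Seq libraries. All libraries came from immortalized brown preadipocytes, the precursors of brown fat cells, of C57BL/6J mice. In the first experiment, cells infected with a retrovirus for FLAG-tagged H3.3, either wild type (WT) or with the K36M mutation, were collected at day 0 (D0), day 2 (D2), and day 7 (D7) of adipogenesis. In the second, sub-confluent cells carrying WT or K36M H3.3 plus a retrovirus for PPARγ received DMSO or the PPARγ ligand rosiglitazone (Rosi). By the labels DMSO stands at time 0 and Rosi at 24 h. In the third, cells without an H3.3 vector carried a control shRNA (Ctrl) or an shRNA that knocks down (KD) *Nsd2*, and were collected at D0 and D2. Each condition had 1 library, so no difference below has a replicate check. The sample labels give the cells a floxed glucocorticoid receptor gene (GR-flox/flox) and mention control and Cre retrovirus, whereas the study's methods describe preadipocytes of newborn WT mice. All cells carried SV40T, the viral protein used to immortalize them.

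Histone H3.3 replaces the replication-dependent H3 histones independently of DNA replication, and the protein made from *H3f3a* is the same as that from *H3f3b*. The HIRA complex, built from HIRA, UBN1, and CABIN1 and supplied with H3.3 by the histone chaperone ASF1A, places H3.3 at transcribed genes and regulatory regions. DAXX, an H3.3-specific chaperone, works with the chromatin remodeler ATRX at telomeres and other heterochromatin. In H3.3K36M, the lysine that Nsd2 and other methyltransferases modify is replaced by methionine.

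The codon for that lysine and its surroundings are shown for both mouse genes, because K36M is a change of this codon and its surroundings show how far the coding sequences of the 2 genes differ. Each line gives the coding strand 5′ to 3′ from the GENCODE M1 transcript on NCBIM37 (mm9), and capitals mark the lysine 36 codon.
*H3f3a*: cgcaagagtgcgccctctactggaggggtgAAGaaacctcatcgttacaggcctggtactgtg
*H3f3b*: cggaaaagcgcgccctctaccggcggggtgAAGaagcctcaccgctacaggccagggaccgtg
The codon lies on the minus strand of chromosome 1 from 182741947 to 182741949 in *H3f3a* and on the minus strand of chromosome 11 from 115885213 to 115885215 in *H3f3b*, in a coding exon of each gene. The printed stretches differ at 11 of 63 bases. Over the whole coding sequences of 411 bases, 95 bases differed, 81 of them at the third codon position, and 0 of 136 residues differed. The longest run of identical bases was 23, so no stretch of 32 bases was shared by the coding sequences of the 2 genes. The deposited values give 1 number per RefSeq transcript and none for a vector, and the origin of the cDNA in the H3.3 retrovirus is not given in the sources used here. Vector reads could therefore not be separated from reads of the endogenous genes.

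The uniqueness of each member was measured by looking up every 32-base stretch of a GENCODE M1 transcript of the gene in the mm9 genome. For *H3f3a*, 362 of 380 stretches within the coding sequence (95.3%) occurred more than once, with up to 29 copies. Over the whole *H3f3a* transcript searched, 70.3% of 693 stretches did so. That transcript is shorter than the 1076 bases of the RefSeq transcript, so part of the latter was not searched. For *H3f3b*, 234 of 380 coding stretches (61.6%) occurred more than once, with up to 4 copies, and 39.7% did so over its whole transcript. Among the 6 chaperone genes this share was at most 0.863% of the whole transcript, in *Daxx*, and it was 0% for *Hira*, *Ubn1*, *Cabin1*, and *Asf1a*. How reads with several matches were counted is not given in the sources used here, so the levels of the H3.3 genes are uncertain in a way that those of the chaperones are not.

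**Figure D1:**
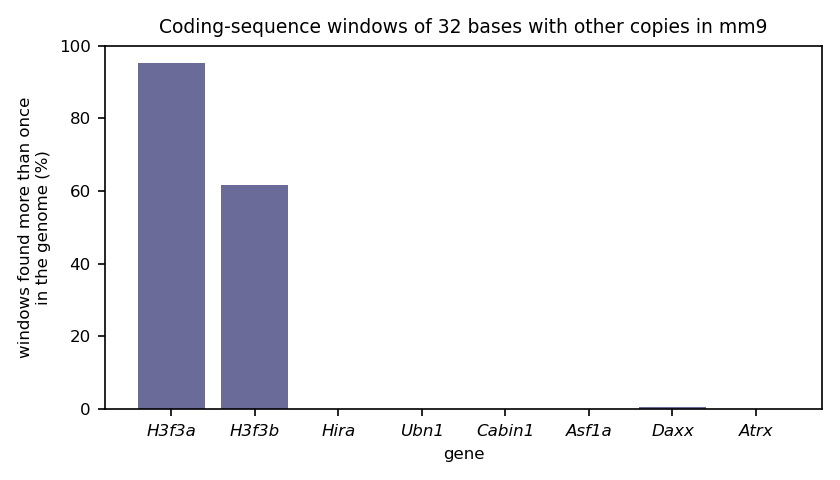
Share of 32-base stretches of each gene's coding sequence that occur more than once in the mm9 genome, in percent, for the 8 genes. The bars stand at 95.3% for H3f3a and 61.6% for H3f3b, and at or near 0 for the 6 chaperone genes.

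The libraries held 12213559 to 24365867 mapped reads, and 3 reads on a transcript of 1 kb correspond to 0.123 to 0.246 RPKM, the unit of all levels here, in which reads are scaled by transcript length and by mapped reads. The 6 adipogenesis libraries of the H3.3 cells stood apart from the other 8. Of 13580 genes that reached an RPKM of 1 in any library, 130 were over 4-fold lower in each of these 6 libraries than in each of the other 8, and 1 was over 4-fold higher. Of 93 protein-coding genes among the 130 with a transcript to examine (of 102), 83 had more than one genomic match for at least 50% of their 32-base stretches, compared with 4.43% of 12163 protein-coding genes. *Ppia*, a housekeeping gene, had 0.753 to 2.24 RPKM in the 6 libraries and 290.2 to 550.4 in the others, and *H2afz*, the gene for the variant histone H2A.Z, had 11.1 to 23.3 and 79.0 to 206 RPKM. None of the 8 members was among the 130 genes. The part of this difference in comparisons of H3.3 with shRNA cells was not tested. As checks of the labels, *Nsd2* had 5.85 and 7.01 RPKM in KD cells and 16.7 to 30.9 in the other libraries. In the 4 libraries with ectopic PPARγ, *Pparg* had 42.6 to 71.8 RPKM. This was above each D0 library (13.4 in WT, 11.5 in K36M, 12.5 in Ctrl, and 26.4 in KD cells). All libraries without ectopic PPARγ, D2 and D7 included, had 11.5 to 101 RPKM, so the level did not set the 4 apart from every later library. Of the brown adipocyte markers, *Ucp1* did not exceed 0.194 RPKM and *Cidea* 0.0973 RPKM in any library, so these defining markers were at or near 0, whereas *Prdm16*, a regulator of brown fat identity, had 0.180 to 3.36 RPKM. The summed level of 8 markers of leukocytes, endothelium, muscle, and epithelium lay between 0.0841 and 2.35 RPKM.

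*H3f3b* had the higher listed level of the 2 genes in every library. It was between 122 and 447 RPKM (RefSeq NM_008211, chromosome 11 from 115883226 to 115889276), whereas *H3f3a* had 9.41 to 31.7 RPKM (NM_008210, chromosome 1 from 182730963 to 182744074). *H3f3a* therefore made up 3.85% to 12.7% of the summed listed RPKM of both genes. The ratio of *H3f3b* to *H3f3a* RPKM was lowest in WT cells at D7 (6.87) and highest in K36M cells at D0 (24.9). These values rest on 176 to 688 reads for *H3f3a* and 2969 to 15746 reads for *H3f3b*. More of the coding stretches occurred more than once in the genome for *H3f3a* (95.3%) than for *H3f3b* (61.6%). A loss of reads with several matches could therefore lower the 2 genes unequally. Its part in the share and in the ratio was not tested, so neither is a measure of relative expression. In bulk RNA a change in the cells that make a transcript cannot be told apart from a change in RNA per cell.

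**Figure D2:**
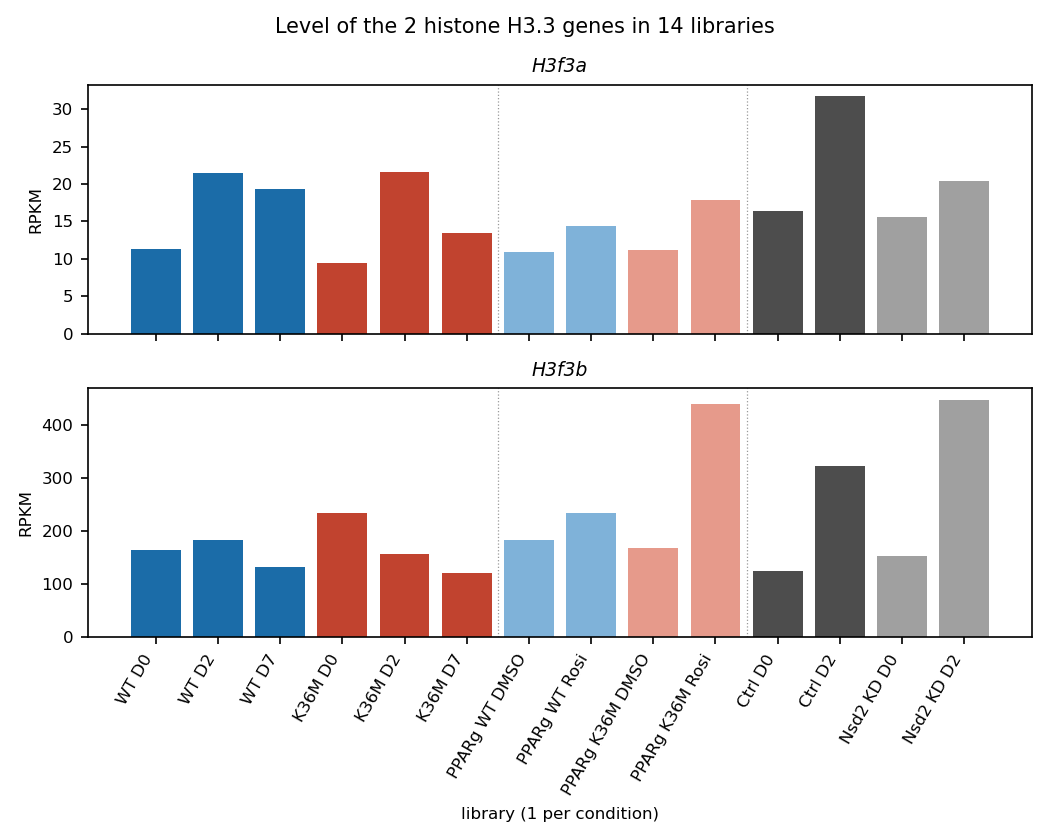
Level in RPKM of H3f3a (top) and H3f3b (bottom) in each of 14 libraries, 1 bar per library, with dotted lines between the 3 experiments. H3f3a is highest in Ctrl cells at D2 (31.7 RPKM), and H3f3b is highest in Nsd2 KD cells at D2 (447 RPKM) and in PPARγ K36M cells with Rosi (439.8 RPKM).

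The first comparison asked whether transcripts of the H3.3 genes were higher in cells carrying an H3.3 vector. The shRNA cells were a separate experiment, and every library of the other experiments carried an H3.3 vector. The vector can therefore not be told apart from other differences between the experiments. At D0 *H3f3a* stood at 11.3 RPKM with WT H3.3 and 9.41 with K36M, against 16.4 in Ctrl and 15.6 in KD cells. At D2 it stood at 21.5 RPKM with WT H3.3 and 21.7 with K36M, against 31.7 in Ctrl and 20.4 in KD cells. At each day both H3.3 libraries were thus lower than the Ctrl library, and no H3.3 library of D0 or D2 lay above every shRNA library. The log2 ratio to Ctrl cells of the same day was -0.53 (95% counting interval -0.77 to -0.30) for WT and -0.80 (-1.06 to -0.55) for K36M cells at D0, and -0.56 (-0.74 to -0.39) and -0.55 (-0.75 to -0.35) at D2. These intervals cover counting error only, and both comparisons of a day share the Ctrl library. In the 4 libraries with PPARγ, which also carried an H3.3 vector, *H3f3a* was between 10.9 and 17.9 RPKM.

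*H3f3b* was on opposite sides of Ctrl cells at the 2 days. At D0 its level was 164 RPKM (WT), 235 (K36M), 125 (Ctrl), and 154 (KD), so both H3.3 libraries were above both shRNA libraries. At D2 its level was 182 RPKM (WT), 157 (K36M), 322 (Ctrl), and 447 (KD), and both H3.3 libraries were below both shRNA libraries. The share of all genes separated in this way at a single day was not counted. Relative to Ctrl cells, the log2 ratio at D0 was 0.39 (0.34 to 0.44) for WT and 0.91 (0.86 to 0.96) for K36M cells. At D2 it was -0.82 (-0.86 to -0.78) for WT and -1.04 (-1.09 to -0.99) for K36M cells, the latter 2.06-fold lower. After the libraries were rescaled by their median ratio, the direction relative to Ctrl cells was the same at each day. The log2 ratios were then 0.18 and 0.60 at D0 and -0.93 and -1.17 at D2. The D0 separation from both shRNA libraries was not kept, because WT cells then had 151 RPKM and KD cells 166.

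Against Ctrl cells, 0 of the 8 genes passed 2-fold in WT cells at D0 (22.2% of all genes did, counting those that reached an RPKM of 1 in either library), 0 in WT cells at D2 (11.2%), and 0 in K36M cells at D0 (28.5%). In K36M cells at D2 only *H3f3b* did, where 21.0% of genes passed in either direction and 5.47% were lower. Rescaling lowered all log2 ratios to Ctrl cells by 0.21 (WT) and 0.31 (K36M) at D0 and by 0.11 and 0.14 at D2. The share of higher genes among those over 2-fold then went from 68.1% to 51.4% for WT and from 66.5% to 45.1% for K36M cells at D0, and *H3f3a* was over 2-fold lower in K36M cells at D0, with a log2 ratio of -1.11.

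Between K36M and WT cells during adipogenesis, *H3f3b* differed most at D0. At D0 the K36M library was higher for *H3f3b*, with a log2 ratio of 0.52 (0.47 to 0.56). At D2 and D7 it was slightly lower, with log2 ratios of -0.22 (-0.27 to -0.16) and -0.12 (-0.19 to -0.05). The D7 levels were 133 RPKM with WT H3.3 and 122 with K36M. *H3f3a* had nearly the same level in both kinds of cells at D2, with a log2 ratio of 0.01 (-0.21 to 0.23). At D7 its level was 19.3 RPKM with WT H3.3 and 13.4 with K36M, and the log2 ratio was -0.53 (-0.81 to -0.25). None of the 8 genes passed 2-fold between K36M and WT cells at D0, D2, or D7, where 11.4%, 15.6%, and 20.2% of genes did.

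During adipogenesis *H3f3a* was higher at D2 than at D0 in all 4 courses, a pattern that 17.0% of 13125 genes showed; after rescaling 16.5% did, *Ubn1* then included. The log2 ratio of D2 to D0 was 0.92 (0.70 to 1.15) in WT, 1.20 (0.94 to 1.47) in K36M, 0.95 (0.76 to 1.14) in Ctrl, and 0.39 (0.16 to 0.61) in KD cells, a 2.30-fold difference in K36M cells. *H3f3b* did not follow the same course. It was 2.58-fold higher at D2 than at D0 in Ctrl cells (log2 ratio 1.36, 1.32 to 1.41) and 2.91-fold higher in KD cells (1.54, 1.50 to 1.59). In cells with an H3.3 vector the log2 ratio was only 0.15 (0.11 to 0.20) in WT and was -0.58 (-0.64 to -0.53) in K36M cells. From D2 to D7, *H3f3b* was lower in both WT and K36M cells, with log2 ratios of -0.46 (-0.52 to -0.40) and -0.36 (-0.43 to -0.29), and *H3f3a* was lower by 0.69 (interval of the ratio -0.97 to -0.42) in K36M cells.

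From D0 to D2 the number of members over 2-fold was 0 in WT cells (26.7% of all genes), 1 in K36M cells (*H3f3a*; 21.5% in either direction and 10.2% higher), 1 in Ctrl cells (*H3f3b*; 27.4% and 11.3%), and 1 in KD cells (*H3f3b*; 28.6% and 11.8%). From D2 to D7 it was 0 in WT (20.8%) and 0 in K36M cells (22.7%). In either direction, the share of members called was below that of all genes in each of these 6 comparisons. The summed RPKM of 5 adipocyte markers (*Pparg*, *Cebpa*, *Fabp4*, *Plin1*, and *Adipoq*) moved with the day as well, from 59.6 to 3567 in WT, from 37.0 to 1592 in K36M, and from 42.2 to 1402 in Ctrl cells, but from 33.9 to only 57.0 in KD cells between D0 and D2. At D7 this sum was 3408 in WT and 219 in K36M cells. *Fabp4* made up most of it at D2, with 3249 RPKM in WT, 1473 in K36M, and 1269 in Ctrl cells. From D2 to D7 in WT cells *Fabp4* went to 2644 RPKM. *Pparg* (66.7 to 101), *Cebpa* (208 to 232), *Plin1* (36.8 to 144), and *Adipoq* (6.16 to 287) were higher at D7 there. In K36M cells only *Adipoq* was higher at D7 than at D2. The part of the markers in the courses of the H3.3 genes was not tested.

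In the PPARγ experiment, *H3f3b* went from 183 RPKM (DMSO) to 235 RPKM (Rosi) with WT H3.3, and from 168 to 439.8 RPKM with K36M. The library of K36M cells with Rosi stood above the other 3, and its log2 ratio to the DMSO library was 1.39 (1.35 to 1.43), 2.62-fold, against 0.37 (0.32 to 0.41) in WT cells. *H3f3a* was also higher with Rosi in both kinds of cells, by a log2 ratio of 0.40 (0.14 to 0.66) in WT and 0.68 (0.42 to 0.93) in K36M cells. With Rosi, 0 of the members in WT cells (15.0% of genes) and 1 in K36M cells (*H3f3b*; 16.8% in either direction and 7.9% higher) passed 2-fold. Between K36M and WT cells with PPARγ, 0 did so with DMSO (8.2%) or with Rosi (19.1%), although *H3f3b* was near the threshold with Rosi, at a log2 ratio of 0.90 (0.86 to 0.95). The study's figure legends give DMSO and Rosi the same length of treatment, whereas the labels give the libraries different times.

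In the comparison of *Nsd2* KD with Ctrl cells, *H3f3a* was lower at D2, with a log2 ratio of -0.64 (-0.82 to -0.45), and near Ctrl cells at D0, with -0.07 (-0.30 to 0.16). *H3f3b* was higher in KD cells at both days, with log2 ratios of 0.30 (0.24 to 0.35) and 0.47 (0.44 to 0.51). None of the 8 members passed 2-fold at D0 (17.4% of genes) or D2 (14.4%).

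The HIRA complex genes covered a narrower range than the H3.3 genes. *Hira* (NM_010435, chromosome 16 from 18877130 to 18970402), which encodes the histone-binding scaffold of the complex, had 7.71 to 9.89 RPKM in WT and K36M cells at D0 and D2 and 10.4 to 16.1 RPKM in the 4 shRNA libraries. The 2 sets of 4 libraries did not overlap, and 3.85% of 13125 genes were lower in the H3.3 libraries in this way. After rescaling the sets still did not overlap, and 6.15% of genes were lower in this way. K36M cells at D7, with 10.5 RPKM, were within the range of the shRNA libraries, as were some of the PPARγ libraries, which reached from 5.96 to 12.4 RPKM. Within that experiment *Hira* was lower with Rosi in both kinds of cells, from 12.4 to 8.96 RPKM with WT H3.3 (log2 ratio -0.47, -0.60 to -0.33) and from 10.8 to 5.96 RPKM with K36M (-0.86, -1.03 to -0.68).

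*Asf1a* (NM_025541, chromosome 10 from 53316767 to 53329019), which encodes the chaperone that hands H3.3 to HIRA, showed the reverse pattern. It had 10.2 to 11.8 RPKM in the WT and K36M libraries of D0 and D2 and 5.23 to 9.32 RPKM in the shRNA libraries, again without overlap. For 8.46% of genes the H3.3 libraries were all higher in this way. The sets of *Asf1a* overlapped after rescaling, when 3.92% of genes were higher in this way. K36M cells at D7 (9.23 RPKM) and all PPARγ libraries (5.44 to 8.43 RPKM) lay inside the range of the shRNA libraries. When all 10 libraries with an H3.3 vector were set against the 4 shRNA libraries, none of the 8 genes was separated (0.641% of genes were higher and 0.346% lower).

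*Ubn1* (NM_026666, chromosome 16 from 5050161 to 5086378), whose product contacts H3.3 within the HIRA complex, had 17.5 to 20.5 RPKM in the 6 adipogenesis libraries of the H3.3 cells and 10.2 to 13.8 RPKM in the 4 PPARγ libraries. In shRNA cells it depended on the day. Ctrl cells went from 12.2 RPKM (D0) to 19.1 (D2) and KD cells from 12.5 to 19.8 RPKM, with log2 ratios of 0.65 (0.55 to 0.74) and 0.66 (0.57 to 0.76). In WT and K36M cells the same ratios were 0.11 (0.02 to 0.19) and -0.03 (-0.13 to 0.07).

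*Cabin1* (NM_172549, chromosome 10 from 75108855 to 75227102), another subunit of the complex, was lower at D2 than at D0 in all 4 courses. The log2 ratio was -0.39 (-0.50 to -0.29) in WT, -0.24 (-0.35 to -0.12) in K36M, -0.45 (-0.55 to -0.35) in Ctrl, and -0.45 (-0.57 to -0.32) in KD cells. In K36M cells it had 14.5 RPKM at D7, its highest level of the 14 libraries, against 10.1 RPKM in WT cells at that day. *Cabin1* was lower in KD than in Ctrl cells at both days, with a log2 ratio of -0.43 each time (-0.54 to -0.33 at D0 and -0.55 to -0.31 at D2).

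**Figure D3:**
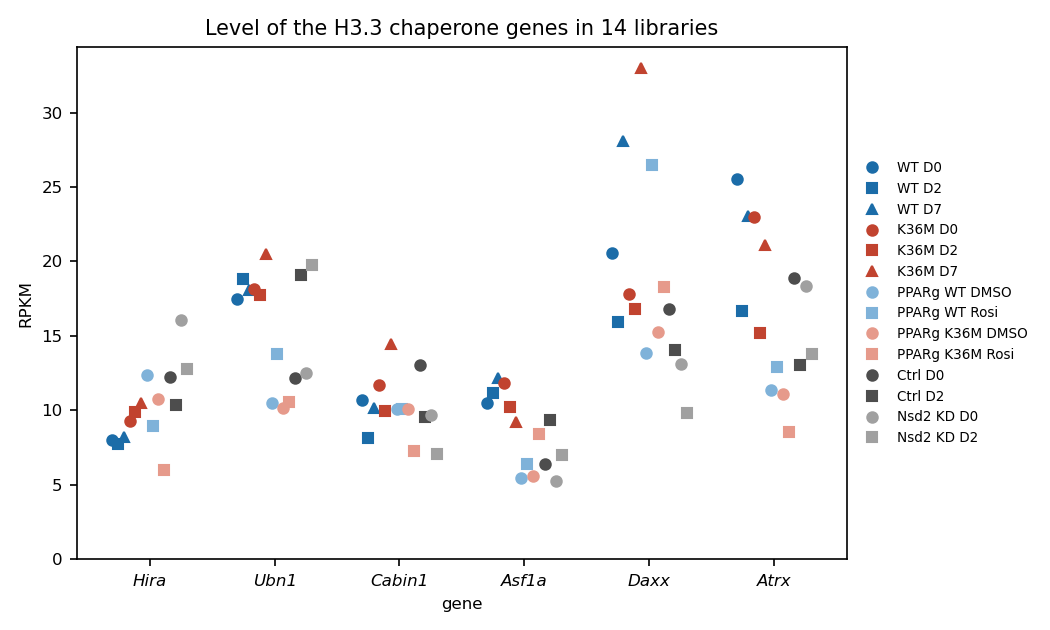
Level in RPKM of the 6 chaperone genes in 14 libraries, 1 point per library, with circles for D0 or DMSO, squares for D2 or Rosi, and triangles for D7. Daxx reaches 28.1 and 33.0 RPKM at D7 in WT and K36M cells. The dark blue and dark red circles and squares of Hira (WT and K36M cells without PPARγ) lie at 7.71 to 9.89 RPKM, below the black and grey ones. The light blue and light red points of Hira (PPARγ cells) reach from 5.96 to 12.4 RPKM.

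*Daxx* and *Atrx* were lowest in the middle of adipogenesis. *Daxx* (NM_007829, chromosome 17 from 34046359 to 34052534) had 20.6, 15.9, and 28.1 RPKM at D0, D2, and D7 in WT cells and 17.8, 16.8, and 33.0 RPKM in K36M cells. The D2 library was the lowest of both courses, although by little in K36M cells (log2 ratio of D2 to D0 -0.09, -0.24 to 0.07). The D7 library was the highest in both courses, with log2 ratios of D7 to D2 of 0.82 (0.68 to 0.96) in WT and 0.98 (0.82 to 1.13) in K36M cells, the latter 1.97-fold. With Ctrl shRNA, *Daxx* went from 16.8 RPKM (D0) to 14.1 (D2), and with *Nsd2* shRNA from 13.1 to 9.83 RPKM. The KD libraries were lower than Ctrl at both days, with log2 ratios of -0.36 (-0.51 to -0.21) and -0.52 (-0.69 to -0.34).

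*Daxx* was higher with Rosi than with DMSO in both kinds of PPARγ cells. With WT H3.3 its level went from 13.9 RPKM (DMSO) to 26.5 (Rosi), and the log2 ratio was 0.94 (0.80 to 1.07). With K36M it went from 15.3 to 18.3 RPKM, and the log2 ratio was 0.26 (0.11 to 0.41). The counting intervals of the 2 ratios did not overlap, and the difference has no replicate check.

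*Atrx* (NM_009530, on the X chromosome from 102992954 to 103124736) had 25.5, 16.7, and 23.0 RPKM at D0, D2, and D7 in WT cells and 23.0, 15.2, and 21.1 RPKM in K36M cells. Ctrl cells went from 18.9 RPKM (D0) to 13.1 (D2), and KD cells from 18.4 to 13.8. The log2 ratio of D2 to D0 was between -0.61 and -0.42 in the 4 courses. *Cabin1*, *Daxx*, and *Atrx* were the members lower at D2 in all 4 courses, as were 20.1% of genes (20.6% after rescaling, with the same 3 members). The K36M library was lower than the WT library for *Atrx* in all 5 pairs, which 7.37% of genes shared (8.58% after rescaling), and no member was higher in all 5 pairs (11.6% of genes). The log2 ratios were small in 4 pairs, at -0.15, -0.14, and -0.13 in adipogenesis and -0.04 (-0.11 to 0.04) with DMSO, and -0.59 (-0.70 to -0.49) with Rosi. The lowest level of *Atrx*, 8.54 RPKM, was in K36M cells with PPARγ and Rosi.

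Over 19 comparisons of 2 libraries, in each of which 8.2% to 28.6% of all genes passed 2-fold, the 8 genes gave 152 ratios. Of the 152 ratios, 5 were past 2-fold. *H3f3b* accounted for 4 of these and *H3f3a* for 1, and no chaperone gene passed 2-fold in any of the 19. The counting interval lay wholly above or below a log2 ratio of 0 for 115 of the 152 ratios, and for only 10 of 19 each of *Ubn1* and *Asf1a*. The share of all genes with such an interval was not counted. The largest chaperone differences were those of *Daxx* from D2 to D7 in K36M cells and with Rosi in WT cells.

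**Figure D4:**
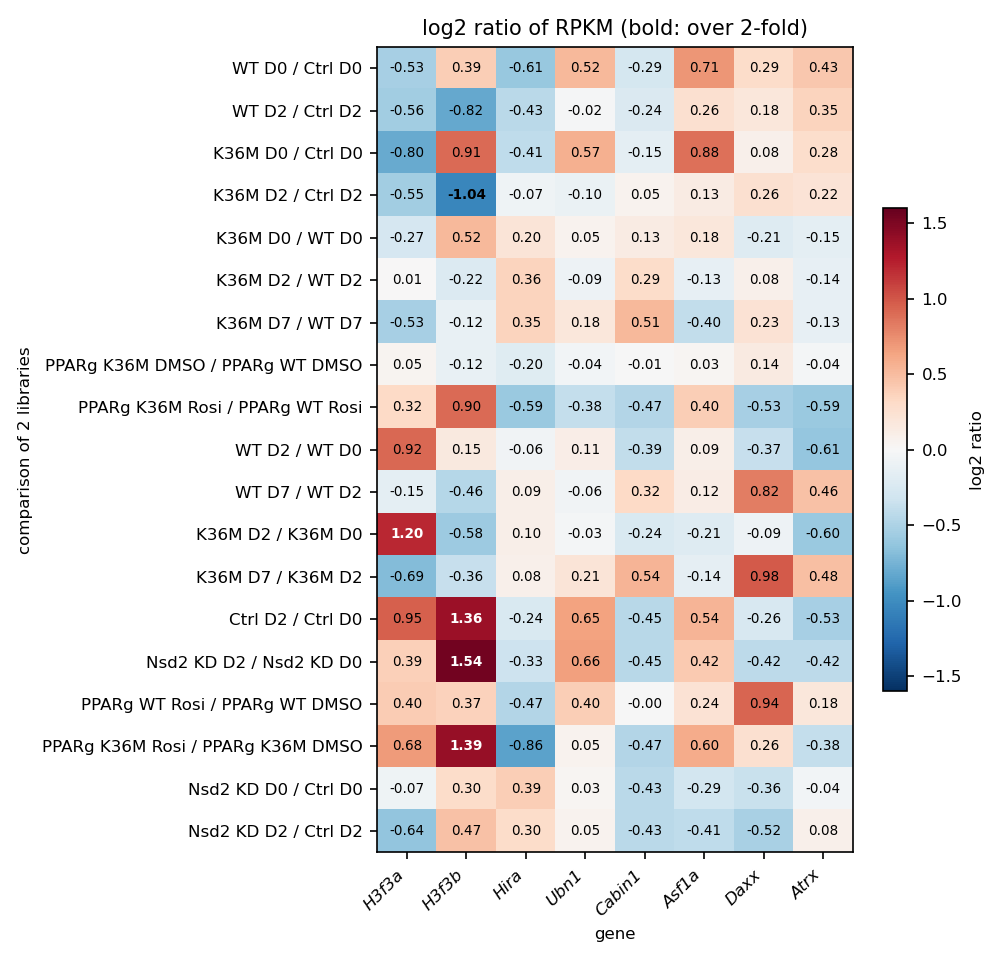
Log2 ratio of RPKM for the 8 genes (columns) in 19 comparisons of 2 libraries (rows), with red for higher and blue for lower in the first library and bold for ratios over 2-fold. The 5 bold values are 4 of H3f3b, between -1.04 and 1.54, and 1 of H3f3a, 1.20.

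Other genes around H3.3 were counted from lists. Of 15 further genes for H3.3 deposition and reading, 0 or 1 passed 2-fold between K36M and WT cells in each of the 5 pairs, where 8.2% to 20.2% of all genes did. The gene that did, at D0 and D7, was *Asf1b*, the paralog of *Asf1a* known from dividing cells. *Asf1b* had 8.27, 19.6, and 45.1 RPKM at D0, D2, and D7 in WT cells and 19.3, 24.5, and 21.3 RPKM in K36M cells. It was 2.33-fold higher in K36M cells at D0 (log2 ratio 1.22, 1.01 to 1.43) and 2.12-fold lower at D7 (-1.08, -1.25 to -0.91). Over the 14 libraries *Asf1b* spanned 8.27 to 45.1 RPKM, a wider range than that of *Asf1a*. The median log2 ratio of K36M to WT cells over the 15 genes was 0.30 at D0, where it was 0.09 over all genes, and 0.08 at D7, where it was 0.12 over all genes. The summed RPKM of 7 genes of S phase and mitosis was 199 in WT and 333 in K36M cells at D0, and 285 and 289 at D7. The part of these genes in the levels of *Asf1b* was not tested.

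**Figure D5:**
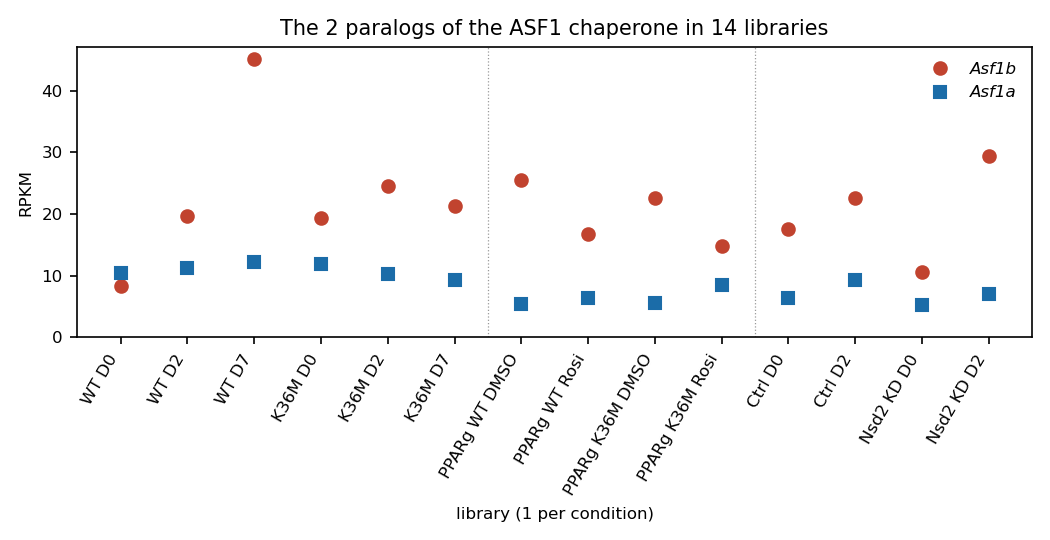
Level in RPKM of Asf1b (red circles) and Asf1a (blue squares) in 14 libraries. Asf1b runs from 8.27 to 45.1 RPKM in WT cells between D0 and D7, whereas Asf1a stays between 5.23 and 12.1 RPKM in all libraries.

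The same list held *Chd2*, a remodeler gene linked to H3.3 deposition, with 16.8 RPKM (WT), 18.9 (K36M), 6.47 (Ctrl), and 8.69 (KD) at D0 but 12.3, 12.4, 11.7, and 16.2 RPKM at D2, and *Dek*, an H3.3-binding protein gene, with its highest level of 130.02 RPKM in KD cells at D2. *Ubn2*, the paralog of *Ubn1*, had 3.04 to 9.08 RPKM. In KD cells 3 of the 15 genes were over 2-fold higher at D2 than at D0 (11.8% of all genes were), *Asf1b*, *Nasp*, and *Dek*, and after rescaling the log2 ratio of *Dek* was 0.99. A further list held 8 genes, *Hjurp* for deposition of the centromeric histone and the others for replication-coupled H3 deposition. Of these 8 genes, 0 passed 2-fold between K36M and WT cells in any of the 5 pairs (8.2% to 20.2% of all genes did). At D0 all 8 were higher in K36M cells, with a median log2 ratio of 0.58, where it was 0.09 over all genes. The 7 genes of S phase and mitosis were all higher there as well, with a median of 0.67. The share of all genes higher at D0 was not counted. The deposition genes with the widest range were *Tonsl* (4.11 to 15.3 RPKM), the MCM helicase gene *Mcm2* (63.8 to 207), *Mms22l* (5.47 to 15.4), and *Hjurp* (24.3 to 58.2), the chaperone of the centromeric histone.

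Of 12 replication-dependent H3 genes, 10 had an RPKM of at least 1 in a library. *Hist1h3d* had 13.7 to 21.8 RPKM in the 4 PPARγ libraries and at most 1.20 RPKM in the other 10, and *Hist1h3h* had 13.5 to 19.4 RPKM in the PPARγ libraries and at most 4.15 RPKM elsewhere. Of 13580 genes, 20 (0.147%) were over 2-fold higher in each PPARγ library than in each other library, both of these among them. *Hist1h3i* and *Hist1h3c* reached 6.70 and 2.01 RPKM. The messengers of these genes usually lack a poly(A) tail, and the libraries were made from mRNA bound to oligo(dT) beads, so these values are a description of what was captured. Among 9 other replacement histones, *Cenpa*, the centromeric H3, had 6.39 to 50.2 RPKM, the linker histone gene *H1f0* 70.01 to 432 RPKM, and *H1fx* 22.7 to 104 RPKM, the latter pair highest in PPARγ K36M cells with Rosi.

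The genes whose log2(RPKM + 1) was most like that of each H3.3 gene were ranked by Pearson's r over the 14 libraries among 8532 genes with a mean RPKM of at least 5. For *H3f3b* they were *Eif1* (r = 0.94), *Snhg1* (0.92), *Exosc7* (0.92), *Phgdh* (0.89), and *Anp32b* (0.89). For *H3f3a* they were *Rnf123* (0.85), *Jmjd8* (0.83), *Col15a1* (0.81), *Coro6* (0.80), and *Irs2* (0.80). These values describe 14 libraries that share cells, days, and experiments. Without the 6 adipogenesis libraries of the H3.3 cells, r over the other 8 was 0.88 to 0.97 for the *H3f3b* genes and 0.80 to 0.89 for the *H3f3a* genes. Within the 6 libraries it was 0.84 to 0.92 and 0.77 to 0.98. The genes were picked over all 14 libraries, so r in a part of them is no separate check.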

How the data were processed

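RNA-Seq of 14 libraries was used, and the ChIP-Seq files of the series were not used here. The authors deposited RPKM for 29082 RefSeq transcripts per library, which is reads divided by transcript length and by mapped reads. The submitters' processing notes name CASAVA 1.8.2, SICER, and mm9; the program that mapped and counted RNA reads, its use of strand, and its handling of reads with several matches are not given in the sources used here.

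Symbols were found for 28432 transcripts (97.8%) by accession in a RefSeq table for GRCm38.p6, used for names only. The transcript with the highest mean RPKM stood for each gene. The 2 *Daxx* transcripts count nearly the same reads. Whole reads were recovered for 26945 of the 26946 transcripts that more than 1 library listed above 0, and gave 95% Clopper-Pearson counting intervals of each ratio. A gene was counted at an RPKM of at least 1 in either library and called past 2-fold, with no pseudocount; with 1 library per condition no test was made. Named list genes were the 8 members, up to 4 per list with the widest log2 range (a gene listed at 0 in a library ranking first), and deposition genes past 2-fold between K36M and WT cells. Stretches of 32 bases were looked up in NCBIM37 for members, and 40 per gene for other genes. The members, lists, and comparisons were chosen with earlier results of these data known. Alternatives were RPKM above 0, pseudocounts of 0.1 and 1, summed transcripts, median-ratio rescaling, calls whose interval excludes 1, and all 10 H3.3 libraries. Scripts were tested on simulated data and used Python 3.11.15, numpy 2.4.6, pandas 2.3.3, scipy 1.17.1, and matplotlib 3.10.9.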

Additional observations from a re-analysis of the deposited data

Results flagged for a closer look

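For *H3f3b* the log2 ratio of D2 to D0 was 0.15 with WT H3.3 and -0.58 with K36M, so the single courses ran in opposite directions and differed by -0.74. From DMSO to Rosi the log2 ratio of *Atrx* was 0.18 in WT and -0.38 in K36M cells, a difference of -0.56. Each direction rests on 1 library per condition, and neither difference was tested.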

How the results depend on the processing

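With the libraries rescaled by the median ratio, 1 member instead of 0 was over 2-fold in K36M against Ctrl cells at D0 (*H3f3a*, lower), and 1 instead of 0 in PPARγ K36M against PPARγ WT cells with Rosi (*H3f3b*, higher, log2 ratio 1.01). The rescaling factors were 1.07 to 1.16 in the adipogenesis libraries of the H3.3 cells and 0.875 to 0.939 in the PPARγ libraries. Counts of members past 2-fold were the same in the other 17 comparisons and, in all 19, with pseudocounts of 0.1 and 1, with summed transcripts, and with an interval excluding a ratio of 1. Rescaling moved 34 of the 152 log2 ratios beyond their counting interval. *Daxx* and *Atrx* in K36M against Ctrl cells at D0 changed from 0.08 and 0.28 to -0.22 and -0.02. Counting genes with an RPKM above 0 raised the number of all genes past 2-fold from between 959 and 3505 to between 4790 and 8498. No paired analysis was possible because the samples carry no replicate numbers and each condition had 1 library; no model over libraries matched by day or ligand was run. Replicate error cannot be estimated here, and the intervals cover counting error only.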
